A study of Mus musculus with 14 samples.

Results

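The genes that make, break down and bind hyaluronan were followed in left ventricular RNA from wild-type (WT) and HCN4F mice after Sham surgery or transverse aortic constriction (TAC). The 9 members were taken by gene symbol from the 49315 genes of the count table: the synthases Has1, Has2 and Has3, the hyaluronidases Hyal1 and Hyal2, the hyaluronan-depolymerizing protein gene Cemip, the receptor gene Cd44, and the matrix genes Vcan and Hapln1. All 9 were found. A total of 7 had enough reads for a test, and Cemip and Hapln1 did not.

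HCN4F mice carry a knock-in gain-of-function substitution in the pacemaker channel HCN4. The allele was made by targeted replacement in the endogenous Hcn4 gene. The study's methods name no Cre driver or transgene. Zygosity and strain were not given in the sources used here. Male mice were operated at 10 to 12 weeks of age, and the hearts were taken 5 weeks later. TAC narrows the aortic arch and loads the left ventricle with pressure, while Sham animals underwent surgery without the constriction. The 14 libraries used here comprised 4 WT-Sham, 4 HCN4F-Sham, 2 WT-TAC (replicates 2 and 3) and 4 HCN4F-TAC, and each was poly(A)-selected RNA of left ventricle tissue. The other WT-TAC samples of the study were not analysed here, so every WT-TAC mean rests on 2 libraries.

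Libraries held 22309914 to 35210939 counts, and the floor of 3 reads that a gene without a count may still hold came to 0.0859 to 0.137 CPM (read counts scaled to a common library size). These floors cover counting error only. The left ventricle label was checked on 5 cardiomyocyte markers, which summed to at least 37949.5 CPM in every library. This sum was 53999 to 57061 CPM in WT-Sham, 48911 to 51948 CPM in HCN4F-Sham, 49360 and 50821 CPM in WT-TAC and 37949.5 to 45640 CPM in HCN4F-TAC, so HCN4F-TAC lay below all other libraries. After TAC in HCN4F all 5 markers had an adjusted p below 0.05, beside 13.6% of all tested genes. Of these markers 4 were lower and Actn2 was higher. The part of this shift in the results below was not tested. The libraries were whole tissue, so fewer cells of a type and less RNA per cell cannot be told apart. Replicate 2 of HCN4F-TAC stood apart by its atrial transcripts: the 5 atrial markers summed to 55.3 CPM there and to 3.46 to 18.4 CPM in the other 13 libraries. Replicates 1, 3 and 4 of HCN4F-TAC were at 9.50, 6.32 and 18.4 CPM, where HCN4F-Sham was at 3.46 to 7.61 CPM. Of the 3 atrial markers tested, Dkk3 was called after TAC in HCN4F (log2 fold change 2.09, adjusted p = 0.00993). Replicate 2 of HCN4F-TAC also had the highest sum of erythroid markers, 365 CPM where the other libraries had 70.9 to 221 CPM. The same library had the lowest share of counts from mitochondrial genes, 13.9%. That share was 16.8% to 18.6% in the other HCN4F-TAC libraries, 17.1% to 21.4% in HCN4F-Sham, 18.4% and 20.03% in WT-TAC and 19.6% to 23.1% in WT-Sham. Without this library the same 3 members, Has1, Cd44 and Vcan, were called after TAC in HCN4F, while the count over all genes was 273 in place of 420. The part of the mitochondrial share in the results was not tested.

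Hyaluronan is a very long, unsulfated glycosaminoglycan that is spun out through the plasma membrane by the HAS enzymes from UDP-glucuronic acid and UDP-N-acetylglucosamine. Outside the cell it is held by CD44 and crosslinked into a swollen, hydrated matrix by versican, a large chondroitin sulfate proteoglycan, together with link proteins such as HAPLN1. It is turned over by the hyaluronidases HYAL2, anchored at the cell surface, and HYAL1, in the lysosome, and by CEMIP. In the heart this matrix is best known from the cardiac jelly and endocardial cushions of the embryo, where Has2 and Vcan are required, and from the provisional matrix that fibroblasts lay down in the injured adult myocardium.

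Has1, Cd44 and Vcan were the members called after TAC in HCN4F hearts, so the 250 bases upstream of their RefSeq start sites are shown (assembly GRCm38.p6, 5′ to 3′ on the strand of the gene). Of the 9 members, 7 had an entry in the promoter table and Has2 and Has3 did not. Each sequence was searched on both strands for the AP-1 site TGANTCA, the TEAD site GGAATG, the GC box GGGCGG, the TATA box TATAAA, the cAMP response element (CRE) TGACGTCA and the SRF CArG box, and matches are in capitals.
Has1 (chr17:17855189-17855438, minus strand): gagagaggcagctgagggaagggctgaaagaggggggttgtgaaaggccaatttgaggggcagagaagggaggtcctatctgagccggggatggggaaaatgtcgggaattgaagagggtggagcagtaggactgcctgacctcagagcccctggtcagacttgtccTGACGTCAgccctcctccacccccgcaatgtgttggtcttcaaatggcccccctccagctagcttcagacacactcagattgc
Cd44 (chr2:102901666-102901915, minus strand): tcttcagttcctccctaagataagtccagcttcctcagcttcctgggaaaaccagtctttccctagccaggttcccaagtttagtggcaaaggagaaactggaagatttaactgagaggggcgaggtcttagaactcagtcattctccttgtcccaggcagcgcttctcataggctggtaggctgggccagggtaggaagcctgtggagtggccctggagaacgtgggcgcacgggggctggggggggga
Vcan (chr13:89742513-89742762, minus strand): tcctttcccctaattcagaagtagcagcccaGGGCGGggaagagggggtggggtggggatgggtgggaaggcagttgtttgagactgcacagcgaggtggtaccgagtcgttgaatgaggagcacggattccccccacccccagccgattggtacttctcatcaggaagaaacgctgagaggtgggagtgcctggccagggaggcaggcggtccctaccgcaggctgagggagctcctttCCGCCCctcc
The Has1 sequence held a CRE, the palindrome read by CREB-family factors, at -83 to -76 from the start. Of all 32851 promoter windows of this length, 1.55% held this motif. The Vcan sequence held 2 GC boxes, at -219 to -214 and, on the other strand, at -10 to -5, a motif present in 32.7% of windows. None of the searched motifs occurred in the Cd44 window. The AP-1 site occurred in 6.75%, the TEAD site in 12.6%, the TATA box in 12.4% and the CArG box in 1.47% of windows. These matches describe letters in a window and not binding.

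After TAC in HCN4F hearts, 3 members were called among the 7 that passed the filter on low counts, and all 3 were higher: Has1, Cd44 and Vcan. A call needed an adjusted p below 0.05 and a change of more than 1 on the log2 scale, and 2.75% of the 15292 tested genes met both in this comparison. Has1 entered the test through the group in which it was high. The members were also chosen with earlier results of these data known, so their count beside this share is no independent support. After TAC in WT hearts 1 member was called, Cd44, where 0.706% of tested genes were. Between HCN4F-TAC and WT-TAC no member was called, where 0.0719% of tested genes were, and Vcan was just below the limit of size. Between the Sham groups no member was called, where 0.209% of tested genes were. These shares moved with single libraries: the genes called over all tested were 7 without WT-TAC replicate 3 in place of 108 after TAC in WT, 158 without HCN4F-TAC replicate 3 in place of 11 between the TAC groups, and 11 without WT-Sham replicate 2 to 92 without HCN4F-Sham replicate 1 in place of 32 between the Sham groups. Each group enters 2 of these comparisons, so their values are not independent. Where groups are said below to overlap or not, this describes single genes. The share of all tested genes without overlap was not computed. The plot of CPM by library shows all 9 members.

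**Figure D1:**
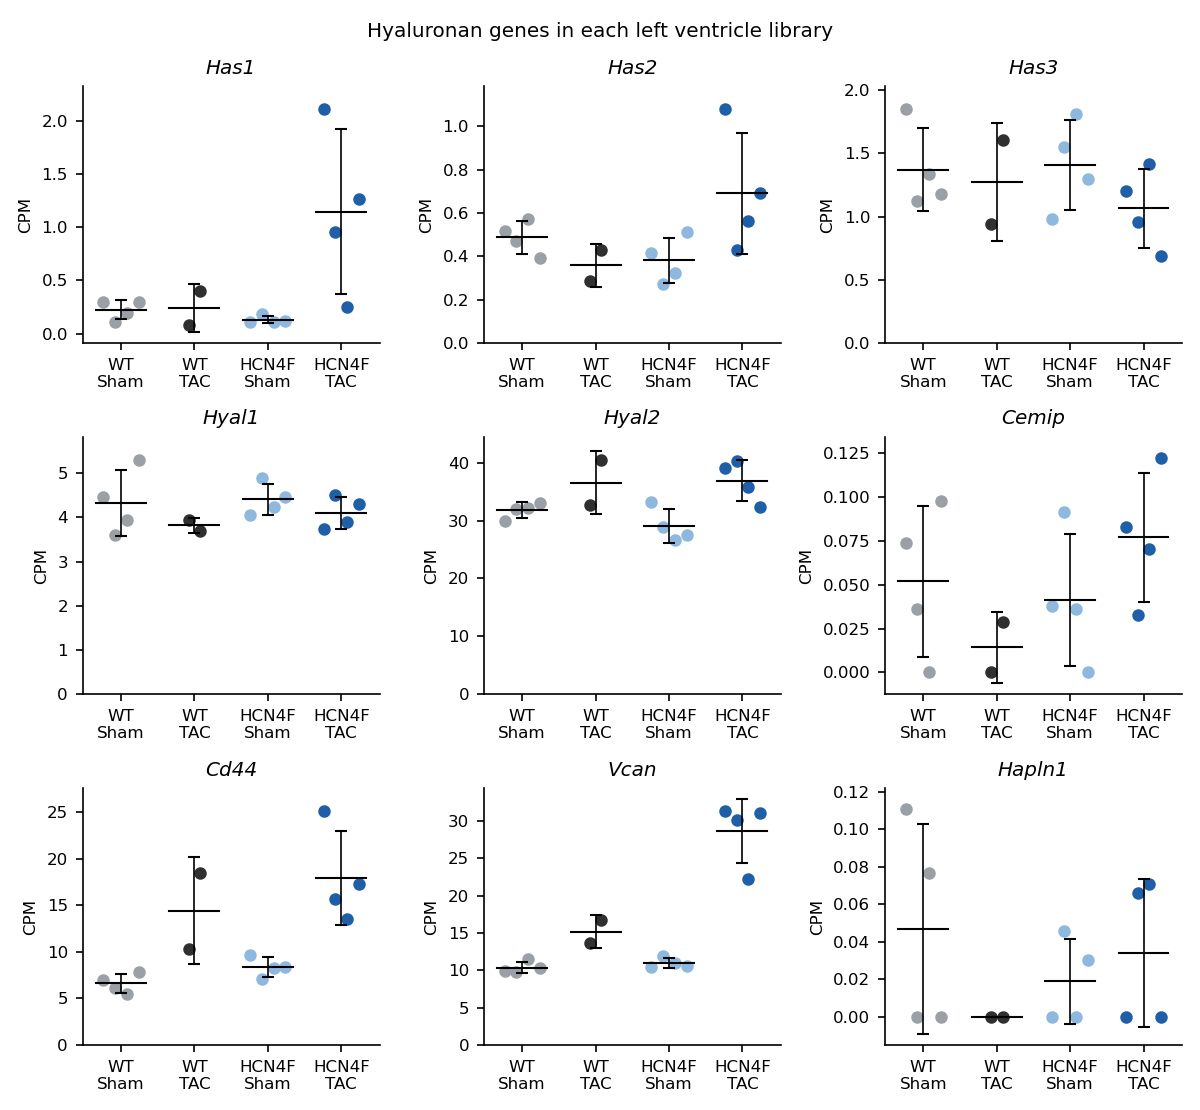
CPM (TMM-scaled) of the 9 members in each of the 14 libraries, by genotype and surgery. Points are libraries, ordered by replicate number within a group. The bar and whiskers are the mean and SD of 4 libraries, or 2 in WT-TAC. Vcan in HCN4F-TAC, from 22.2 to 31.3 CPM, lies above all other libraries, while Has1 in HCN4F-TAC spreads from 0.247 to 2.12 CPM.

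Has1 had the largest fold change of the tested members after TAC in HCN4F hearts. The gene (ENSMUSG00000003665) spans chr17:17843323-17855205 on the minus strand of GRCm38 and encodes a plasma membrane hyaluronan synthase. In HCN4F-TAC it read 2.12, 0.955, 0.247 and 1.26 CPM in replicates 1 to 4, from 51, 29, 7 and 31 counts. In HCN4F-Sham it read 0.113, 0.183, 0.108 and 0.121 CPM, from 3, 4, 3 and 4 counts. The groups did not overlap, although replicate 3 of HCN4F-TAC was close to the Sham libraries and within the range of WT-Sham. The mean rose from 0.131 ± 0.0346 to 1.14 ± 0.774 CPM (SD, n = 4 each). The log2 fold change was 3.09 (SE 0.593, 95% interval 1.83 to 4.34), or 8.50-fold, with an adjusted p of 0.00286 (quasi-likelihood test of edgeR, adjusted by Benjamini-Hochberg, as for all adjusted p-values below unless another tool is named). The Sham level rests on 14 reads in all 4 libraries. Has1 reached 10 counts only in 3 HCN4F-TAC libraries and in WT-TAC replicate 3, so it entered the test through the group in which it was high, and its call is no independent support for a difference. It did not pass the filter on low counts when HCN4F-TAC and HCN4F-Sham were fitted alone. In the fit of all groups the value was 2.62 to 3.43 with single libraries left out (adjusted p from 8.19e-05 to 0.0120).

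In WT hearts Has1 gave no such difference. WT-Sham read 0.296, 0.109, 0.191 and 0.294 CPM, from 8, 3, 5 and 9 counts, and WT-TAC read 0.0822 and 0.401 CPM, from 2 and 14 counts. The WT-TAC libraries lay on either side of the whole WT-Sham range. The log2 fold change was 0.22 (SE 0.774, 95% interval -1.42 to 1.86, adjusted p = 0.902), which leaves both a decrease and an increase within the interval. Without WT-TAC replicate 3 it was -1.40 (adjusted p = 0.700). Between HCN4F-TAC and WT-TAC the Has1 log2 fold change was 2.09 (SE 0.660, unadjusted p = 0.00601, adjusted p = 0.208), and replicate 3 of HCN4F-TAC lay between both WT-TAC libraries. With single libraries left out the value ran from 1.48 without WT-TAC replicate 2 (adjusted p = 0.792) to 3.71 without WT-TAC replicate 3 (adjusted p = 0.263). It was 2.43 without HCN4F-TAC replicate 3 (adjusted p = 0.0144). The test of whether the TAC response differed between genotypes gave 2.87 for Has1 (SE 1.00, adjusted p = 0.466), and 2.26 without WT-TAC replicate 2 to 4.48 without WT-TAC replicate 3 with single libraries left out (adjusted p from 0.0709 to 0.709). In the Sham groups Has1 differed by -0.78 (SE 0.744, adjusted p = 0.652).

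Has2 encodes the synthase required in the embryonic heart and lies at chr15:56665627-56694539, minus strand. It read 0.517, 0.472, 0.574 and 0.392 CPM in WT-Sham, 0.414, 0.274, 0.325 and 0.513 CPM in HCN4F-Sham, 0.288 and 0.429 CPM in WT-TAC, and 1.08, 0.428, 0.565 and 0.692 CPM in HCN4F-TAC. Replicate 1 of HCN4F-TAC was the highest library for Has2, as it was for Has1 and Cd44. Has2 did not pass the test in any comparison. After TAC the log2 fold change was 0.80 in HCN4F (SE 0.319, adjusted p = 0.108) and -0.40 in WT (SE 0.408, adjusted p = 0.596). The difference of these responses was 1.20 (SE 0.517, 95% interval 0.11 to 2.29, adjusted p = 0.495). With single libraries left out the Has2 response was 0.51 to 0.99 in HCN4F and -0.75 to -0.18 in WT. Counts were low, 6 to 26 per library, and 4.3% of the exon bases of Has2 overlap the antisense gene Has2os, while the use of strand in the counting was not given in the sources used here.

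Has3 encodes the third synthase (chr8:106870242-106884566, plus strand). It read 1.85, 1.12, 1.34 and 1.18 CPM in WT-Sham, 0.979, 1.55, 1.81 and 1.30 CPM in HCN4F-Sham, 0.945 and 1.60 CPM in WT-TAC, and 1.20, 0.955, 1.41 and 0.692 CPM in HCN4F-TAC. All 4 groups overlapped. The log2 fold change after TAC was -0.39 in HCN4F (SE 0.266, 95% interval -0.96 to 0.17, adjusted p = 0.353) and -0.08 in WT (SE 0.315, adjusted p = 0.919). Reads in 5.52% of its exon bases could also come from Chtf8 on the opposite strand.

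CPM per kb of exon divides by the length of all annotated exons of a gene, so comparisons between genes depend on the annotated transcripts. On this scale the share of Has1 among the 3 synthases differed between libraries. Has1 made up 7.73% to 19.0% of the summed synthase level in WT-Sham, 6.25% to 11.6% in HCN4F-Sham, and 7.77% and 20.1% in WT-TAC. In HCN4F-TAC it made up 51.4%, 45.7%, 13.4% and 50.7% in replicates 1 to 4. Has3 had the largest share in all libraries of the other 3 groups and in replicate 3 of HCN4F-TAC, whereas Has1 led in the remaining 3 HCN4F-TAC libraries. The summed level was 0.276 to 0.384 CPM per kb in HCN4F-Sham and 0.410 to 0.911 CPM per kb in HCN4F-TAC. In WT-Sham it was 0.312 to 0.477, and in WT-TAC 0.234 and 0.441 CPM per kb. The stacked plot of the synthases shows the same values, which are descriptions without a test of their own.

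**Figure D2:**
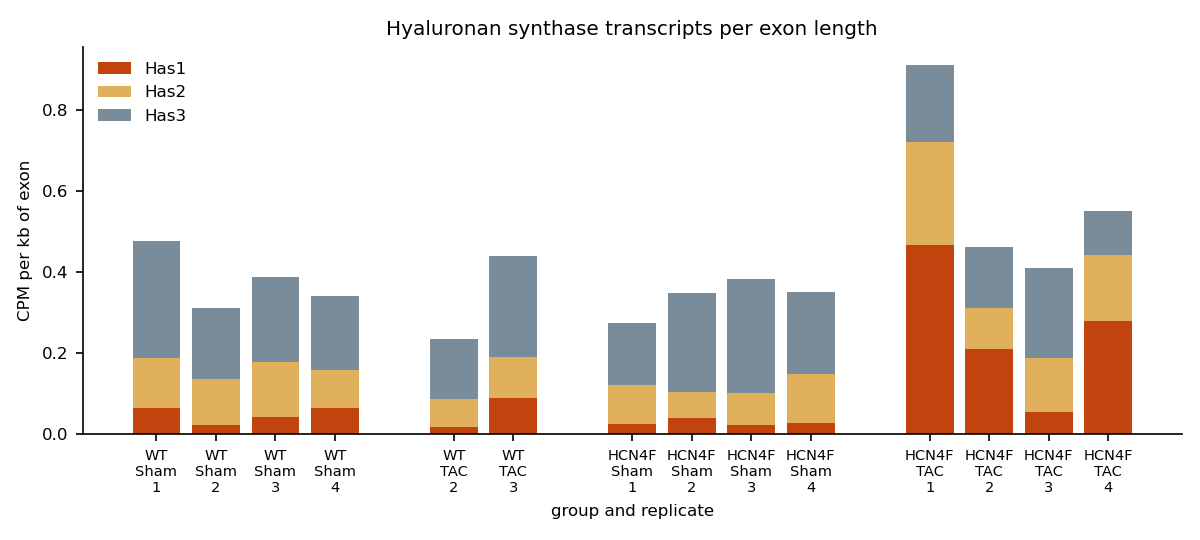
Level of Has1, Has2 and Has3 in CPM per kb of exon, stacked for each of the 14 libraries and labelled by group and replicate. The height of a bar is the summed synthase level, which reached 0.911 in HCN4F-TAC replicate 1. Has1 is the largest segment in HCN4F-TAC replicates 1, 2 and 4.

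The hyaluronidase genes moved little. Hyal2 encodes the hyaluronidase at the cell surface that starts the breakdown of long chains (chr9:107567945-107572779, plus strand), and 4.1 kb downstream lies Hyal1, which encodes the lysosomal enzyme (chr9:107576927-107581710, plus strand). Both are 48.7 Mb from Hcn4 on the same chromosome. Hyal2 read 29.9, 32.0, 32.2 and 33.1 CPM in WT-Sham, 33.3, 28.8, 26.6 and 27.5 CPM in HCN4F-Sham, 32.7 and 40.4 CPM in WT-TAC, and 39.1, 40.3, 35.7 and 32.4 CPM in HCN4F-TAC. In HCN4F hearts its mean rose from 29.1 ± 2.95 to 36.9 ± 3.54 CPM (SD, n = 4 each), although the highest Sham library lay above the lowest TAC library. The log2 fold change was 0.34 (SE 0.0905, adjusted p = 0.0175), below the limit of size for a call, and the adjusted p was 0.0505 to 0.0657 without HCN4F-Sham replicates 3 or 4 or HCN4F-TAC replicates 1 or 2. In WT it was 0.20 (SE 0.109, adjusted p = 0.284), and 0.04 to 0.35 with single libraries left out. The Hyal2 responses of the genotypes differed by 0.14 (SE 0.143, 95% interval -0.16 to 0.44, adjusted p = 0.797).

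Hyal1 read 4.47, 3.59, 3.94 and 5.29 CPM in WT-Sham, 4.07, 4.88, 4.23 and 4.47 CPM in HCN4F-Sham, 3.94 and 3.69 CPM in WT-TAC, and 3.73, 4.51, 3.89 and 4.31 CPM in HCN4F-TAC. The compared groups overlapped in each of the 4 comparisons. After TAC the log2 fold change was -0.10 in HCN4F (SE 0.131, 95% interval -0.37 to 0.18, adjusted p = 0.664) and -0.18 in WT (SE 0.161, adjusted p = 0.529). The Hyal1 values are uncertain, since 50.8% of its exon bases are shared with Naa80 and 4.21% with Hyal3 on the same strand, and the counting could split or drop such reads.

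Cemip encodes a protein needed for the breakdown of hyaluronan by fibroblasts (chr7:83932857-84086502, minus strand). It was at 0 to 3 counts in every library, at or below the limit that a count of 0 allows, and was not tested. Its counts were 2, 1, 0 and 3 in WT-Sham, 1, 2, 1 and 0 in HCN4F-Sham, 0 and 1 in WT-TAC, and 2, 1, 2 and 3 in HCN4F-TAC. A difference in Cemip was not detectable at this depth.

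Cd44, the main cell surface receptor for hyaluronan on fibroblasts and leukocytes, was called after TAC in both genotypes. The gene (ENSMUSG00000005087) lies at chr2:102811141-102901665 on the minus strand. It read 6.95, 6.13, 5.51 and 7.84 CPM in WT-Sham and 10.4 and 18.5 CPM in WT-TAC. The groups did not overlap. The mean was 6.61 ± 1.01 CPM (SD, n = 4) against 14.4 ± 5.78 CPM (SD, n = 2), and the log2 fold change was 1.14 (SE 0.241, 95% interval 0.62 to 1.65, adjusted p = 0.0232). The Cd44 call in WT was lost without WT-TAC replicate 3, at a log2 fold change of 0.65 (adjusted p = 0.341), and without WT-Sham replicate 1, at 1.15 (adjusted p = 0.0626).

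In HCN4F hearts Cd44 read 9.67, 7.07, 8.28 and 8.36 CPM after Sham and 25.1, 15.7, 13.5 and 17.3 CPM after TAC, again without overlap. The mean was 8.35 ± 1.06 against 17.9 ± 5.04 CPM (SD, n = 4 each), and the log2 fold change was 1.09 (SE 0.202, 95% interval 0.66 to 1.53, adjusted p = 0.00281). Without HCN4F-TAC replicate 1, the highest library, it was 0.89 (adjusted p = 0.00543), below the limit of size. The TAC responses of Cd44 in HCN4F and WT differed by -0.04 (SE 0.318, adjusted p = 0.982), with a 95% interval of -0.72 to 0.64. Between the TAC groups Cd44 differed by 0.30 on the log2 scale, with the higher mean in HCN4F (SE 0.242, adjusted p = 0.665), and the Sham groups differed by 0.34 (SE 0.210, adjusted p = 0.467). Neither difference passed the test.

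Vcan, which encodes versican, had the smallest error of the called members. The gene (ENSMUSG00000021614) lies at chr13:89655312-89742509 on the minus strand. It read 9.91, 9.79, 11.5 and 10.3 CPM in WT-Sham, 10.5, 11.9, 11.0 and 10.5 CPM in HCN4F-Sham, 13.6 and 16.7 CPM in WT-TAC, and 31.3, 30.1, 22.2 and 31.0 CPM in HCN4F-TAC. Every TAC library was above every Sham library, and every HCN4F-TAC library was above both WT-TAC libraries. The means were 10.4 ± 0.767 CPM in WT-Sham, 11.0 ± 0.657 CPM in HCN4F-Sham, 15.2 ± 2.20 CPM in WT-TAC and 28.6 ± 4.34 CPM in HCN4F-TAC (SD, n = 4, 4, 2 and 4).

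The log2 fold change of Vcan after TAC was 1.38 in HCN4F (SE 0.110, 95% interval 1.15 to 1.61, adjusted p = 3.98e-06), or 2.61-fold. It stayed between 1.34 and 1.49 when single libraries were left out. In WT it was 0.56 (SE 0.132, 95% interval 0.28 to 0.83, adjusted p = 0.0302), which passed the test and not the limit of size, and 0.40 (adjusted p = 0.346) without WT-TAC replicate 3. The adjusted p of Vcan in WT was also above 0.05 without WT-Sham replicates 1, 2 or 4, at 0.0837, 0.0601 and 0.0781.

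Between HCN4F-TAC and WT-TAC, Vcan was higher by 0.91 on the log2 scale (SE 0.135, 95% interval 0.63 to 1.20, adjusted p = 0.00619), or 1.88-fold. It was the only member with an adjusted p below 0.05 in this comparison, where 0.111% of tested genes were below it. The adjusted p was 0.218 when only the compared groups were fitted with edgeR, 0.000119 with DESeq2 on those groups, and 0.328 without WT-TAC replicate 2. The TAC responses differed by 0.83 (SE 0.174, 95% interval 0.46 to 1.20, unadjusted p = 0.000187, adjusted p = 0.223). No tested gene, and so no member, passed the adjusted test of this difference with edgeR (0% of 15292). At an unadjusted p under 0.05 there were 3 members, Vcan, Has1 and Has2, beside 9.27% of all tested genes. DESeq2 on all groups gave Vcan an adjusted p of 0.0138 for the same difference, and edgeR without HCN4F-TAC replicate 3 gave 0.0122. In the Sham groups Vcan differed by 0.08 (SE 0.112, 95% interval -0.15 to 0.32, adjusted p = 0.767).

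Hapln1 encodes the link protein that locks versican onto hyaluronan and lies at chr13:89539796-89611652 on the plus strand, where a gap of 43.7 kb separates it from Vcan. It was at 0 to 3 counts in every library and was not tested. The counts were 3, 0, 2 and 0 in WT-Sham, 0, 1, 0 and 1 in HCN4F-Sham, 0 and 0 in WT-TAC, and 0, 2, 2 and 0 in HCN4F-TAC. A difference in Hapln1 was therefore not detectable, while its neighbour Vcan rose in HCN4F hearts.

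**Figure D3:**
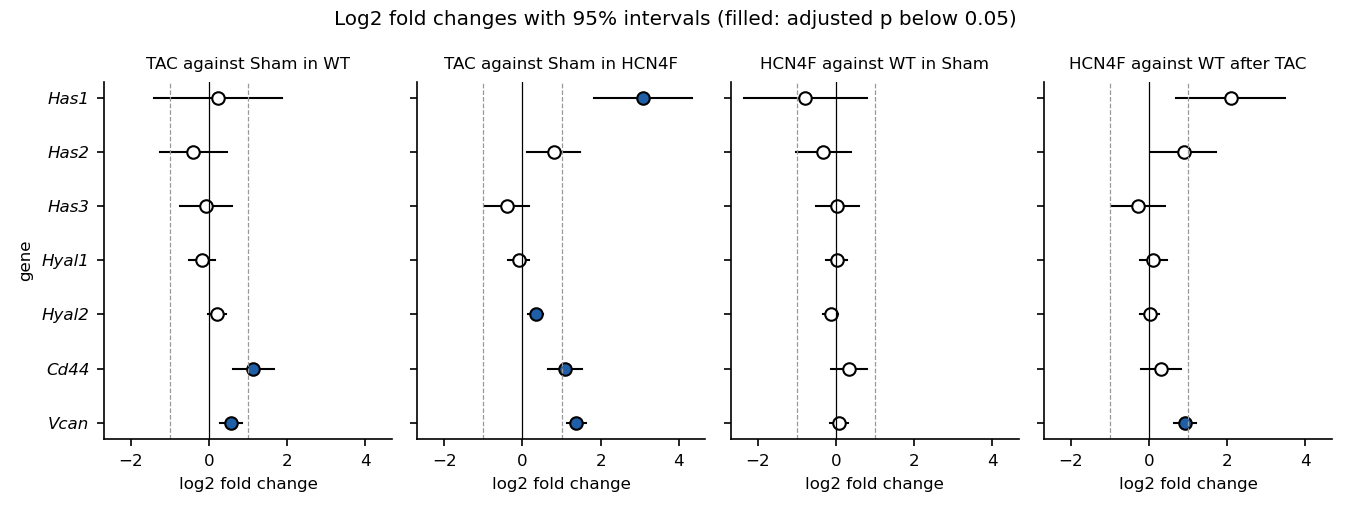
Log2 fold changes (x axis) of the 7 tested members in the 4 comparisons, from the edgeR fit of all 14 libraries. Points are estimates, lines are 95% intervals, filled points have an adjusted p below 0.05, and dashed lines mark the limit of size at a log2 change of 1 in either direction. Has1, Cd44 and Vcan lie beyond that limit after TAC in HCN4F, and the interval of Has1 is the widest in each panel.

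The members differed widely in level. Over the 14 libraries the mean level in CPM per kb of exon was 10.1 for Hyal2, 1.69 for Cd44, 1.14 for Vcan, 1.12 for Hyal1, 0.201 for Has3, 0.117 for Has2, 0.102 for Has1, 0.00484 for Hapln1 and 0.00415 for Cemip. Hyal2 was above Cd44, and Cd44 above Vcan, in all 14 libraries. The order was not stable between Vcan and Hyal1, where Vcan was higher in 5 of 14 libraries, the 4 HCN4F-TAC libraries and WT-TAC replicate 3, nor between Hapln1 and Cemip, where Hapln1 was higher in 6 of 14. Has3 was above Has2 in 12 of 14 libraries and Has2 above Has1 in 11 of 14. On this scale the surface hyaluronidase transcript was therefore at a higher level than any synthase transcript in every library. The place of Hyal1 is uncertain, because much of its exon length is shared with Naa80.

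No member passed the test between HCN4F-Sham and WT-Sham with edgeR. None had an unadjusted p under 0.05, beside 15.2% of all tested genes, and DESeq2 on all groups also called 0 members. The estimates ran from -0.78 for Has1 to 0.34 for Cd44 on the log2 scale. After TAC, 3 members had an unadjusted p under 0.05 between the genotypes, Vcan, Has1 and Has2, beside 12.5% of all tested genes, and DESeq2 on all groups called 0 members.

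The other genes of the pathway were taken from 5 lists with 48 symbols, of which 47 were found and 35 were tested. After TAC 28 of the 35 were higher in HCN4F and 24 of 35 in WT, beside 7474 and 7114 of all 15292 tested genes. In HCN4F hearts 5 were called and all 5 of these were higher, beside 2.75% of all tested genes called. The median log2 fold change was 0.31, beside -0.01 over all tested genes. After TAC in WT hearts 0 were called with edgeR on all groups, 6 had an unadjusted p under 0.05 beside 22% of all tested genes, and DESeq2 on all groups called 0. The median was 0.08, beside -0.02 over all tested genes. The called genes were the receptors Hmmr and Tlr4, the matrix genes Acan and Itih2, and the protease gene Adamts20. The count of 5 was 2 without HCN4F-TAC replicate 1, 3 without HCN4F-Sham replicate 3, 3 when the compared groups were fitted alone, and 1 where a mean of 1 CPM was required for testing.

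Among the receptors, 2 of 7 were called. Tlr4, the innate immune receptor for which hyaluronan fragments are reported ligands, read 10.5, 6.57, 7.70 and 9.66 CPM in HCN4F-Sham and 23.8, 14.4, 18.5 and 16.5 CPM in HCN4F-TAC, without overlap. Its log2 fold change was 1.08 (SE 0.153, adjusted p = 0.000324) in HCN4F and 0.74 (SE 0.181, adjusted p = 0.0325) in WT. Hmmr, which encodes the hyaluronan-mediated motility receptor and is also a gene of dividing cells, read 0.602, 0.548, 0.434 and 0.423 CPM in HCN4F-Sham and 1.20, 0.889, 0.565 and 1.87 CPM in HCN4F-TAC, with overlap. Its log2 fold change was 1.16 (SE 0.327, adjusted p = 0.0250) in HCN4F and 1.29 (SE 0.434, adjusted p = 0.0943) in WT. The other 5 receptor genes, among them the lymphatic receptor gene Lyve1 and the scavenger receptor genes Stab1 and Stab2, did not pass the test in either genotype.

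Among the 10 tested matrix and serum proteins that bind hyaluronan, 2 were called. Itih2 encodes a heavy chain of inter-alpha-trypsin inhibitor, a protein that is transferred onto hyaluronan. It read 0.263, 0.456, 0.108 and 0.362 CPM in HCN4F-Sham and 1.70, 1.94, 0.530 and 1.51 CPM in HCN4F-TAC, without overlap. The log2 fold change of Itih2 was 2.25 (SE 0.442, adjusted p = 0.00310) in HCN4F and 0.30 (SE 0.660, adjusted p = 0.834) in WT. Acan, which encodes the proteoglycan aggrecan, read 0.113, 0.548, 0.832 and 0.574 CPM in HCN4F-Sham and 1.95, 1.84, 1.06 and 1.26 CPM in HCN4F-TAC. Its log2 fold change was 1.55 (SE 0.369, adjusted p = 0.0105) in HCN4F and 0.64 (SE 0.474, adjusted p = 0.452) in WT.

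The versican-cleaving ADAMTS proteases had 1 called gene of 6. Adamts20 read 0.376, 0.365, 0.145 and 0.513 CPM in HCN4F-Sham and 1.04, 1.09, 0.565 and 0.692 CPM in HCN4F-TAC, without overlap. Its log2 fold change was 1.25 (SE 0.336, adjusted p = 0.0202) in HCN4F and 0.25 (SE 0.452, adjusted p = 0.792) in WT. No gene of the other 2 lists was called. Of the 8 genes that supply UDP-sugar precursors, the most abundant, Ugp2, which encodes the enzyme that makes UDP-glucose, rose by 0.61 (SE 0.125, adjusted p = 0.00457) in HCN4F and by 0.57 (SE 0.149, adjusted p = 0.0414) in WT on the log2 scale, below the limit of size. The most abundant of the other degradation genes, Hexa, which encodes a lysosomal hexosaminidase subunit, differed by 0.18 (SE 0.0794, adjusted p = 0.141) in HCN4F. The testis hyaluronidases Hyal5 and Spam1 and the gene Hyal4 were at 0 counts in all 14 libraries.

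By the adjusted p alone, 12 of the 35 pathway genes passed after TAC in HCN4F, beside 13.6% of all tested genes, and 4 passed in WT, beside 4.54%. The 4 in WT were Ugp2, Gfpt1, Tlr4 and Adamts1, named here after their values were seen, and all 4 also passed in HCN4F. Adamts1 encodes the protease best known for cutting versican and rose by 0.81 (SE 0.128, adjusted p = 0.000844) in HCN4F and 0.84 (SE 0.153, adjusted p = 0.0108) in WT. Gfpt1 encodes the entry enzyme of the hexosamine pathway and rose by 0.31 (adjusted p = 0.0217) and 0.40 (adjusted p = 0.0367). Between HCN4F-TAC and WT-TAC 0 pathway genes were called with edgeR, and 9 had an unadjusted p under 0.05, beside 12.5% of all tested genes. DESeq2 on all groups called 2 there, Itih2 and Itih4. Between the Sham groups 0 pathway genes were called with edgeR or with DESeq2 on all groups, and 5 had an unadjusted p under 0.05, beside 15.2% of all tested genes.

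**Figure D4:**
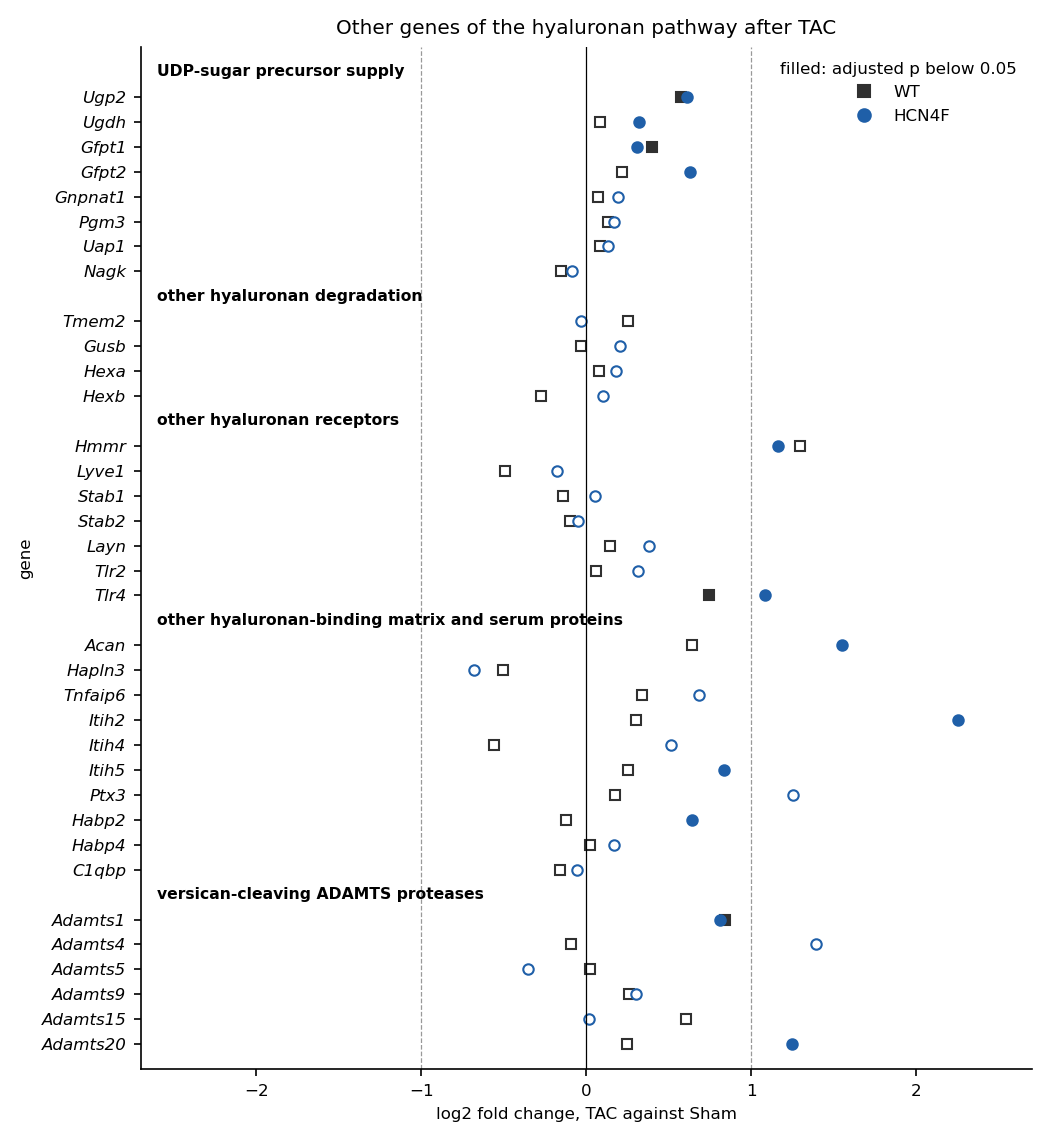
Log2 fold change after TAC (x axis) of the 35 tested pathway genes, grouped by list. Squares are WT, circles are HCN4F, and filled symbols have an adjusted p below 0.05. Of the HCN4F values 28 lie above 0 and of the WT values 24, with Itih2 at 2.25 the farthest, and 12 are filled against 4 in WT.

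Sums of marker genes were compared beside these results. The 6 fibroblast markers summed to 665 to 681 CPM in WT-Sham, 622 to 813 CPM in HCN4F-Sham, 616 to 733 CPM in WT-TAC and 775 to 1270 CPM in HCN4F-TAC, and all 6 were higher after TAC in HCN4F. Of them 3 passed the test there, Col1a1 at 1.14, Col3a1 at 1.00 and Lum at 0.51 on the log2 scale, and Col1a1 was the 1 called. Over all tested genes 13.6% passed and 2.75% were called. The other 3, Pdgfra, Dcn and Tcf21, were at 0.10, 0.10 and 0.06 and did not pass. The 5 activated fibroblast markers summed to 29.2 to 34.1 CPM in WT-Sham, 26.1 to 38.3 CPM in HCN4F-Sham, 48.8 ± 1.68 CPM (SD, n = 2) in WT-TAC, and 162, 303, 66.8 and 198 CPM in HCN4F-TAC replicates 1 to 4. Of them Postn, Comp and Cilp were called in HCN4F, beside 2.75% of all tested genes, and Fap was not. Cthrc1 was called too, but it had at most 6 counts in any library outside HCN4F-TAC and entered the test through that group alone. In WT the most abundant of them, Postn, differed by 0.69 (SE 0.381, adjusted p = 0.320). HCN4F-TAC replicate 3 was the lowest of its group for this sum, for Has1, for Vcan and for Cd44, while replicate 2, the highest for the sum, was the highest for none of the 3. WT-TAC replicate 3, with the second highest Cd44 of the 14 libraries at 18.5 CPM, had the lowest fibroblast sum at 616 CPM. The part of these cells in the differences was not tested.

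The 6 macrophage markers summed to 160 to 193 CPM in WT-Sham, 170 to 224 CPM in HCN4F-Sham, 160 and 171 CPM in WT-TAC and 164 to 256 CPM in HCN4F-TAC. The 5 lymphocyte markers summed to 4.80 to 8.27 CPM in WT-Sham, 5.98 to 7.17 CPM in HCN4F-Sham, 5.18 and 7.93 CPM in WT-TAC and 8.13 to 11.3 CPM in HCN4F-TAC. Most of this sum was Ptprc, a gene of all leukocytes, at a mean of 7.31 of 9.48 CPM in HCN4F-TAC, which did not pass the test after TAC in HCN4F (0.41 on the log2 scale, adjusted p = 0.106). The T cell gene Cd3e was at 4 to 6 counts in HCN4F-TAC and 5 to 7 counts in HCN4F-Sham and was not tested. Cd3g, the other T cell gene listed, was at 3 to 6 counts in HCN4F-TAC and 2 to 4 in HCN4F-Sham. Ms4a1 was at 5 to 10 and 1 to 6 counts in the same order, and neither was tested. Cd79a, a B cell gene, was called after TAC in HCN4F at 2.83-fold (SE of the log2 fold change 0.334, adjusted p = 0.00699). The part of leukocytes in the Cd44 values was not tested. The 5 neutrophil markers summed to 0.574 to 1.31, 1.96 to 2.97, 2.43 and 3.74, and 1.82 to 5.79 CPM in the same order of groups. Of these 5, 2 were called after TAC in WT, S100a8 and S100a9, beside 0.706% of tested genes. Their WT-Sham level rests on 10 and 13 reads in all 4 libraries, and their WT-TAC level on 36 and 52 reads in 2. Has1 is also a gene of mesothelial cells. The 7 epicardial or mesothelial markers summed to 4.78 to 18.1 CPM in HCN4F-Sham and 5.93 to 11.5 CPM in HCN4F-TAC. By library the sum was 6.18, 5.93, 8.09 and 11.5 CPM in HCN4F-TAC replicates 1 to 4, where Has1 was at 2.12, 0.955, 0.247 and 1.26 CPM. It was 4.78, 18.1, 6.29 and 6.22 CPM in HCN4F-Sham replicates 1 to 4, where Has1 was at 3, 4, 3 and 4 counts. Wt1 made up 6.96 of the mean of 7.93 CPM in HCN4F-TAC and differed by 0.31 on the log2 scale after TAC in HCN4F (adjusted p = 0.225). The mesothelial genes Msln, Upk3b and Muc16 had lower estimates after TAC, -1.38, -1.88 and -2.47 (adjusted p = 0.549, 0.418 and 0.341), and none of the 4 tested markers passed. Msln was at 1 count in HCN4F-TAC replicate 1 and at 27 in replicate 4, and at 56 in HCN4F-Sham replicate 2. The part of mesothelial cells in the Has1 values was not tested.

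The genes with a pattern most like that of Has1 and Vcan were sought among 12559 tested genes whose mean reached 1 CPM. The measure was the root mean square difference of log2 CPM, each gene centred on its own mean, over the 14 libraries. For Vcan the nearest were Emp1 at 0.17, Fstl1 at 0.18 and Panx1 at 0.18, where Vcan itself had an SD of 0.65. Fstl1, a secreted glycoprotein of the heart, was at 70.4 ± 3.13 CPM in WT-Sham, 81.4 ± 8.06 CPM in HCN4F-Sham, 98.5 ± 3.83 CPM in WT-TAC and 169 ± 39.3 CPM in HCN4F-TAC (SD, n = 4, 4, 2 and 4). Emp1, an epithelial membrane protein gene, was at 43.4 ± 4.13, 43.3 ± 4.25, 59.6 ± 5.04 and 116 ± 34.0 CPM in the same order. Panx1, a channel gene, was at 1.45 ± 0.149, 1.63 ± 0.165, 1.95 ± 0.0806 and 4.08 ± 1.01 CPM.

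For Has1, with an SD of 1.19, the nearest were farther away: Meox1 at 0.58, Mfap4 at 0.59 and Tnc at 0.62. Meox1 encodes a homeobox transcription factor and was at 12.9 ± 2.44 CPM in WT-Sham, 13.2 ± 2.50 CPM in HCN4F-Sham, 17.2 ± 2.78 CPM in WT-TAC and 35.8 ± 11.1 CPM in HCN4F-TAC (SD, n = 4, 4, 2 and 4). Mfap4, a microfibril-associated matrix gene, was at 9.11 ± 1.24, 9.82 ± 2.49, 14.7 ± 0.381 and 35.3 ± 16.1 CPM in the same order. Tnc, which encodes the matrix protein tenascin C, was at 1.44 ± 0.137, 1.98 ± 0.478, 2.57 ± 0.328 and 6.09 ± 2.11 CPM. All 6 genes had their highest mean in HCN4F-TAC, which their choice by likeness to Has1 or Vcan fixes.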

How the data were processed

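Poly(A)-selected RNA of left ventricle tissue was sequenced on an Illumina platform. The authors deposited raw counts per gene, whole numbers without normalization. The submitters' processing notes name GRCm38, while the aligner, counting program, annotation and strand setting were not given in the sources used here. Groups came from the sample labels. The count table holds 2 further columns of per-sample values, which were not used: their names carry TAC and WT but match no sample label.

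All 14 libraries were fitted together with edgeR 4.0.16 (R 4.3.3): TMM normalization, filterByExpr by group (minimum count 10), a mean for each group, and the robust quasi-likelihood test, adjusted by Benjamini-Hochberg across the 15292 genes that entered it. The study's methods use DESeq2, tried here as an alternative (version 1.42.0). CPM values are TMM-scaled without a pseudocount, and log2 CPM used a prior count of 2. Replicates differed by more than sampling noise in every pair. The steps were tested on simulated data.

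Positions, exon lengths and overlaps came from GENCODE mouse release 21 (GRCm38), in which all 9 members matched by gene ID. Promoters came from RefSeq (GRCm38.p6). Members and lists were chosen with earlier results of these data known. Named are all members, every called pathway gene, otherwise the most abundant gene of a list, and the 3 genes most like Has1 and Vcan. Further pathway genes (Gfpt1, Adamts1, Lyve1, Stab1, Stab2, Hyal4, Hyal5, Spam1, Itih4 and Adamts4) and the marker genes were named outside this rule after their values were seen. Of 13 lists of cell markers, those printed here are cardiomyocyte, atrial, erythroid, fibroblast, activated fibroblast, macrophage, lymphocyte, neutrophil and epicardial or mesothelial. Alternatives were DESeq2 on all or only the compared groups, edgeR on only the compared ones, size factors of DESeq2, no filter, a minimum mean of 1 CPM, estimation without robustness, the replicate number as a block, and each library left out in turn. Python 3.11.15 and matplotlib 3.10.9 made the figures.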

Additional observations from a re-analysis of the deposited data

Results flagged for a closer look

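In each group of 4 libraries the lowest or highest value was compared with its nearest neighbour for the 9 members. Of 27 such groups, 2 held a library whose gap to the next, as a share of the whole range, was above Dixon's 95% critical value. Chance flags about 1 in 20 groups. Vcan in HCN4F-TAC replicate 3, at 22.2 CPM, lay below the other 3 libraries at 30.1 to 31.3 CPM, with a gap share of 0.871. The same library had the lowest Has1, Cd44 and summed activated fibroblast markers of its group. Has1 in HCN4F-Sham replicate 2, at 0.183 CPM from 4 counts, lay above the other 3 libraries at 0.108 to 0.121 CPM, with a gap share of 0.834. That library has the smallest total of all, 22309914 counts, and replicate 4 of the group also had 4 counts.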

How the results depend on the processing

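The count of called members after TAC in HCN4F, 3 in the fit of all groups, was 2 to 3 under the alternatives. For single members 245 values kept their direction and side of the threshold under other settings and 263 with a library left out, while 2 and 24 changed sign. After TAC in WT, 0 members were called without a filter (Cd44, adjusted p = 0.0516), 0 to 1 with a library left out. Between HCN4F-TAC and WT-TAC, 0 to 2 members were called with a library left out: Vcan without WT-TAC replicate 3, Has1 and Vcan without HCN4F-TAC replicate 3. For the difference of TAC responses 1 member, Vcan, passed with DESeq2 on all groups and without a filter, and 0 to 1 with a library left out.

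Of the pathway genes after TAC in HCN4F, 5 in the fit of all groups, 3 were called with edgeR on the compared groups, 1 at a mean CPM of at least 1 (fewer genes tested), and 2 to 6 with a library left out. After TAC in WT, 1 was called with edgeR on the compared groups (Hmmr), and 0 to 1 with a library left out (Lyve1 without WT-TAC replicate 2). Between HCN4F-TAC and WT-TAC, 2 were called with DESeq2 on all or on the compared groups and 2 without a filter, and 0 to 3 with a library left out. Between the Sham groups it was 0 to 1 (Adamts4 without HCN4F-Sham replicate 1). Over all genes the other settings called 260 to 457 (main 420) after TAC in HCN4F, 68 to 192 (108) after TAC in WT, 3 to 87 (11) between the TAC groups, 21 to 78 (32) between the Sham groups and 0 to 40 (0) for the difference of responses. With a library left out these counts were 273 to 550, 7 to 91, 6 to 158, 11 to 92 and 0 to 78. The cause was not tested.

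Hyal2 between the TAC groups was -4.376e-05 with DESeq2 on all groups and -0.00405 without a filter. With a library left out, the range between the TAC groups was -0.0539 to 0.79 for Cd44, -0.58 to 0.18 for Has3 and -0.13 to 0.17 for Hyal2. Between the Sham groups it was -0.11 to 0.21 for Has3 and -0.0552 to 0.14 for Hyal1. After TAC in WT it was -1.40 to 0.83 for Has1 and -0.53 to 0.23 for Has3. For the difference of responses it was -0.39 to 0.45 for Cd44, -0.62 to 0.14 for Has3, -0.0285 to 0.17 for Hyal1 and -0.0035 to 0.30 for Hyal2.

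The replicate numbers did not pair the samples: deviations of libraries with the same number correlated at -0.12 to 0.159. With the replicate block, 3 members were called after TAC in HCN4F and 1 in WT, and 6 pathway genes were called after TAC in HCN4F, with no call among the members gained or lost. The adjusted p of Vcan was then 0.0751 after TAC in WT and 0.0777 between the TAC groups. Has1 and Has2 could not be fitted at a mean CPM of at least 1, and on the compared groups Has1 could be fitted between the TAC groups alone. Depth limits Has1, Has2, Cemip and Hapln1, and 2 libraries limit WT-TAC.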
